A study of Arabidopsis thaliana with 24 samples.

Results

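The transcripts described here were low after 1 week in 3 of 4 groups of Arabidopsis thaliana seedlings: wild-type (WT) seedlings without phosphate and pnp1-1 seedlings with or without it. The members are 278 of 22746 probe sets, a probe set being the group of array probes that reads 1 transcript. They were chosen from the 12 arrays at 1 week, on log2 intensity with values under 4 (an intensity of 16) set to 4. A member had a group mean at least 0.8 lower in WT without phosphate than in WT with it. It was also at least 0.8 lower in pnp1-1 than in WT with phosphate, and its pnp1-1 mean moved by at most 0.5 between the media. All 1 week values below are therefore a description of the choice and carry no test. The WT group with phosphate enters both falls, so a high value in that group alone can meet both conditions. Transcript levels at 3 h came from other arrays and were not used to choose members.

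The seedlings were of accession Columbia-0, either WT or the null mutant pnp1-1. The mutant is 1 insertion line, SALK_013306, so an effect of PNP1 cannot be told apart from other differences of that line. All groups spent their initial 2 weeks on phosphate-replete MS medium (0.5% sucrose, 22 °C, 16 h photoperiod). They then went to fresh medium with phosphate (+P) or to medium in which KH2PO4 had been left out and potassium made up with K2SO4 (-P), and were taken 3 h or 1 week later. There are 3 arrays for each of the 8 groups, each from a pool of seedlings with the roots cut off, and pools are named as biological replicates.

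PNP1 encodes the polynucleotide phosphorylase of the chloroplast, an enzyme that trims and degrades plastid RNA from its 3′ end and uses inorganic phosphate to do so. Plants short of phosphate induce phosphatases and phosphate transporters, replace phospholipids with lipids free of phosphate, and slow shoot growth and photosynthesis. Transcripts that fall in the shoot during starvation therefore often belong to photosynthesis, plastid function and cell division.

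Arrays carry no depth, so precision here is set by how many there are. Dim probe sets, with values below 16 and no dependable order, made up 40.3% to 41.5% of an array. Replicate arrays had correlations of 0.978 to 0.997 over probe sets. The shoot gene RCA, which encodes Rubisco activase, was between 17512 and 36283 on the 24 arrays, and the root hair genes EXPA7 and EXPA18 were at background (3.32 to 3.59). Of 15 marker genes, only these 3 have a named probe set. No probe set is named for PNP1, so the mutation was not checked here. Of 13513 probe sets with 1 named gene, 161 are members. A further 3 members name several genes and 114 name none, so the genes below describe part of the module. Of 223 genes on 16 pathway lists (phosphate starvation, light harvesting and others), 28 (12.6%) have a named probe set, which voids a count over them, and 0 of these are members.

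At 1 week the members' mean log2 level was 7.30, 7.56 and 7.45 on the WT +P arrays. It was 6.19, 6.22 and 6.48 in WT -P, 6.04, 5.68 and 6.56 in pnp1-1 +P, and 5.79, 5.98 and 6.24 in pnp1-1 -P. The 9 arrays of the 3 low groups overlap each other, and none reaches the WT +P arrays, as the rule requires on average. The WT difference (-P minus +P) ran from -2.74 to -0.80 with a median of -1.01, and the genotype difference on +P (pnp1-1 minus WT) from -3.59 to -0.80 with a median of -1.20. The corresponding medians over all 22746 probe sets were 0. The rule asks for a fall in both contrasts, which 3.03% of all probe sets meet for the WT response and 5.43% for genotype, and the size of the fall was larger for genotype in 177 members. In pnp1-1 the median response to -P was -0.09, and on -P the genotypes differed by a median of -0.21, with single members from -1.99 to 1.55. Both falls reached at least 2-fold in 124 members and at least 4-fold in 7. In bulk tissue, fewer cells of a type and less RNA per cell cannot be told apart.

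**Figure D1:**
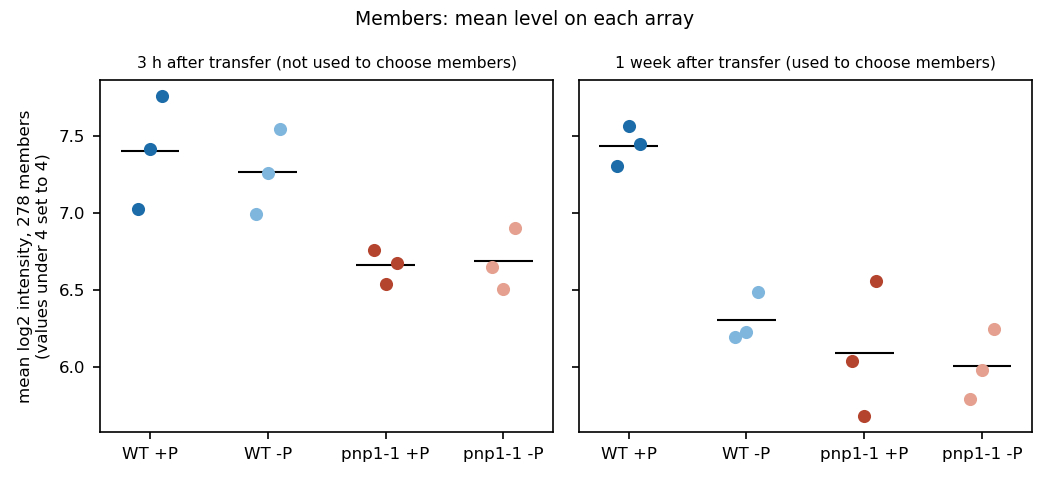
Mean log2 intensity of the 278 members on each array (points) and the mean of 3 arrays (lines), at 3 h on the left and at 1 week on the right, with values under 4 set to 4. At 3 h all 6 pnp1-1 arrays lie between 6.51 and 6.90, below the 6 WT arrays at 6.99 to 7.76. At 1 week, which chose the members, only the WT +P arrays (7.30 to 7.56) are high.

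The members differed in how well single arrays bore out the pattern. In 150 of them (54.0%) all 3 WT +P arrays lay above the other 9 arrays at 1 week. The rule favours such a gap, and its share over all probe sets was not counted, so the number only describes the choice. In 125 the WT +P arrays themselves spread over more than 0.8 on the log2 scale, and in 21 the highest WT +P array was more than 1 above the next. WT +P replicates 2 and 3 were nearly alike, and their log2 values differed with an SD of 0.267, the lowest of all replicate pairs. They shared 404 identical values, where every other replicate pair of that time shared 4 to 136 (the 3 h arrays are written with 1 decimal in place of 2, and their counts of 193 to 4921 are not comparable). With those arrays counted as 1 sample, 262 probe sets met the rule, and 207 of the 278 were among them. A separate trio of arrays, pnp1-1 +P replicate 2, WT -P replicate 1 and pnp1-1 -P replicate 1, had raised lower quartiles of intensity (6.44, 6.36 and 6.45, against 5.41 to 5.76 on the other 9). All 3 belong to the low groups, and each carries the lowest mean member level of its group. Without that trio, a choice made after seeing the data, 164 probe sets met the rule and 122 of them were among the 278. Leaving out each array in turn gave between 182 probe sets (without pnp1-1 +P replicate 2) and 493 (without WT +P replicate 1), and 42 members met the rule every time. Just inside the rule, AT2G01400 had a WT difference of -0.87 and a genotype difference of -0.80, 266509_at had -0.86 and -0.80, and 245336_at had -0.80 and -1.59. Just outside it, AT4G33740 had -0.80 and -1.23, 257573_at had -0.80 and -1.003, and 247741_at had -0.80 and -0.81, each missing the WT threshold by at most 0.002.

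The 3 h arrays show whether the members were also lower in pnp1-1 at a time the rule did not use. They were in part: 89 of 278 members were lower in pnp1-1 when the genotype difference was averaged over both media. Examples, picked after their values were seen, are the plastid genes ndhJ and ccsA, TRXF2 (a thioredoxin that activates enzymes of the chloroplast by reducing them) and TAPX (the thylakoid ascorbate peroxidase, which removes hydrogen peroxide). The share of chloroplast genes among the 89 was not counted, so these examples show no theme. The 89 calls are 32.0% of members against a background of 6.14% lower calls over all probe sets, at a limma adjusted p under 0.05. Their log2 differences ran from -5.78 to -0.48 with a median of -1.06. Another 3 members were higher in pnp1-1 (1.08%, background 6.81%). The median difference of all 278 members was -0.63, against -0.01 for all probe sets, and 238 members (85.6%) lay below 0, against 60.1%. In 56 members (20.1%, background 3.74%) every pnp1-1 array at 3 h was below every WT array. With each array left out in turn, 59 to 108 members were called lower. The 59 came both without WT -P replicate 3 (963 of all probe sets lower) and without pnp1-1 -P replicate 2 (947). The 108 came without WT +P replicate 1 (1599), so lower calls over all probe sets moved as well. Of the 89, 53 passed in every repeat, a count not taken over all probe sets. Over all probe sets the calls split into 1549 higher and 1397 lower, and into 1290 higher and 1826 lower with each array centred on its median.

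Taken medium by medium, fewer members passed. In the repeats below, members are counted when called lower, and probe sets when called in either direction unless marked lower. On +P, 37 members were lower in pnp1-1 (13.3%, background 2.44%) and 0 were higher (background 2.68%). A fit of only the 6 arrays compared called 12 members lower and 161 probe sets (80 lower). With the replicate number as a block, 82 members and 2601 probe sets (1194 lower) were called over the 12 arrays. Within the 6 arrays, a fit added after seeing the data, the block gave 0 and 0. The numbers did not pair these samples. The median was -0.67, against -0.02 over all probe sets. Of the members 236 (84.9%) lay below 0, against 61.0% of all, and 109 members (39.2%, background 10.7%) had non-overlapping groups with pnp1-1 below. Without WT +P replicate 3, which had the highest member level (7.76, against 7.03 and 7.42), 324 probe sets (143 lower) and 11 members were called on +P. The members' median was then -0.45. Without WT +P replicate 2, 707 probe sets and 20 members were called, and without pnp1-1 +P replicates 1, 2 or 3, 721, 599 and 612 probe sets and 27, 16 and 21 members. Without pnp1-1 -P replicate 1, which enters through the shared spread, 701 and 27 were called. The calls over all probe sets on +P split into 610 higher and 554 lower, and into 524 higher and 872 lower with each array centred on its median. On -P, 16 members were lower (5.76%, background 1.29%) and 0 higher (background 1.77%), the median was -0.53 against 0.00, and 230 members (82.7%) lay below 0, against 55.5% of all. On -P 100 members (36.0%, background 9.26%) had non-overlapping groups. Here same-numbered arrays deviated together. With the replicate number as a block 41 members and 1293 of all probe sets (602 lower) were called, against 695 probe sets (293 lower) without it. With that block fitted to the 6 arrays of this comparison alone, a fit added after seeing the data, 6 members and 145 probe sets were called. Without WT -P replicates 1, 2 or 3 in turn, 408, 290 and 204 probe sets and 12, 8 and 6 members were called, and without pnp1-1 -P replicates 1 or 2, 270 and 173 probe sets and 7 and 6 members. Without WT +P replicate 2, 537 probe sets (228 lower) and 10 members were called on -P. In both media 213 members (76.6%) had a negative difference, against 44.9% of all probe sets. The calls of both media shared 12 members, all lower, but the same count over all probe sets was not taken.

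**Figure D2:**
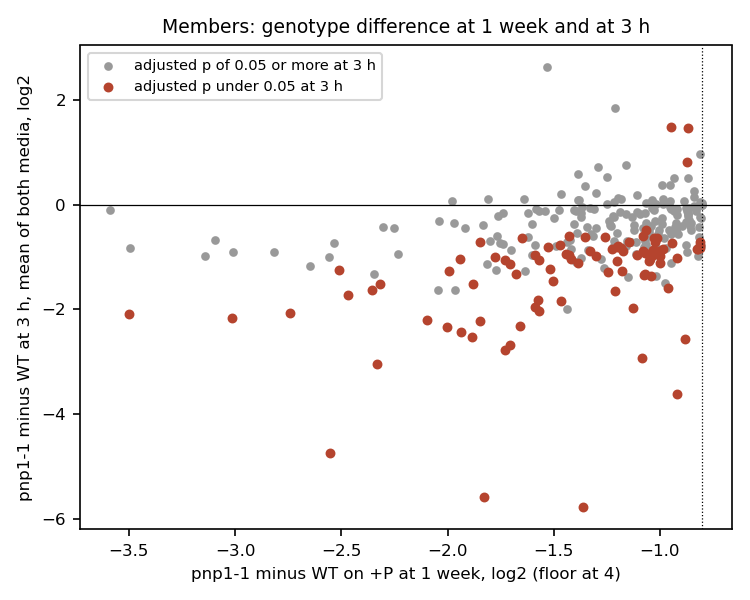
Genotype difference (pnp1-1 minus WT, log2) of each member on +P at 1 week (horizontal, used to choose members) and averaged over both media at 3 h (vertical). Red points passed an adjusted p under 0.05 at 3 h: 89 lie below 0 and 3 above, and the vertical dotted line marks the rule's limit of -0.8.

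Across members the 1 week and 3 h genotype differences, both with the floor, had a Pearson's r of 0.32 and a Spearman's rho of 0.36, as a description over 278 probe sets that share arrays and are no independent replicates. The 3 h difference was not limited to probe sets that also fell in starved WT. Among 859 probe sets with only the genotype fall at 1 week, 295 were lower in pnp1-1 at 3 h (34.3%), with a median of -0.57. Among 97 with both falls but a pnp1-1 response beyond 0.5, 31 were lower (32.0%), with a median of -0.89. Among 315 with only the WT fall, 18 were lower (5.71%) and 35 higher (11.1%), with a median of 0.03. Of the other 12326 probe sets with a WT +P log2 level of at least 4.8 at 1 week, which could have met the rule, 1089 were lower (8.84%). The members' share of lower calls was thus close to that of the other probe sets with a genotype fall, and no difference between these sets was tested.

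**Figure D3:**
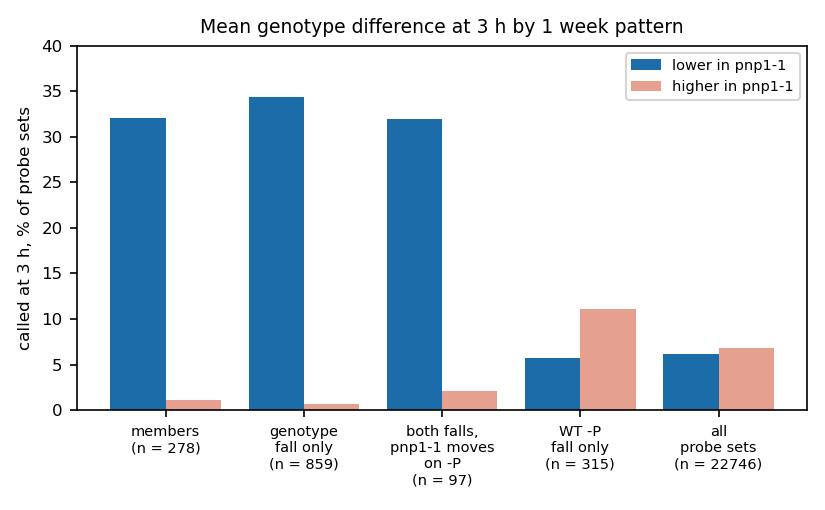
Share of probe sets called lower (blue) or higher (pink) in pnp1-1 at 3 h, averaged over both media, for sets defined by their 1 week values; n is the number of probe sets. Lower calls make up 32.0% of members, 34.3% of probe sets with only the genotype fall and 5.71% of those with only the WT fall.

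Plastid-encoded members were ndhD, ndhJ and ccsA. The ndh genes encode subunits of the NDH complex, which carries electrons around photosystem I, and ccsA encodes a protein that attaches heme to c-type cytochromes. They are 1.86% of the members with a gene, and plastid genes are 0.514% of all named probe sets. These genes and their neighbours were picked out after their values were seen. The level of ndhJ at 1 week was 277, 255 and 401 in WT +P and 61.8, 186 and 211 in WT -P. In pnp1-1 it was 86.7, 81.4 and 151 on +P and 98.3, 130.2 and 180 on -P. All 3 WT +P arrays thus lay above the other 9. At 3 h ndhJ was 670.1, 433 and 637 in WT +P, 469.5, 782 and 474 in WT -P, 208, 185 and 62.2 in pnp1-1 +P and 128, 354 and 148 in pnp1-1 -P. The 6 WT arrays lay above the 6 pnp1-1 arrays, and the mean difference was -1.83 ± 0.37 (SE, adjusted p = 0.0129, 6 arrays a genotype). In the plastid genome ndhJ is co-transcribed with ndhK and ndhC, which are not members. ndhK met both falls (-1.10 and -1.13), but its pnp1-1 response of 0.67 lay outside the limit, and at 3 h it was lower in pnp1-1 by a log2 difference of -1.44 ± 0.38 (adjusted p = 0.0381). ndhC had 1 week differences of -0.10 and -0.29 and a 3 h difference of -0.44 ± 0.13 (adjusted p = 0.0501).

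The level of ndhD at 1 week was 950.1, 384 and 831 in WT +P and 125, 122 and 526 in WT -P. In pnp1-1 it was 132, 159 and 389.8 on +P and 125, 123 and 395 on -P. In each of the 3 low groups replicate 3 was the high array and overlapped WT +P. At 3 h ndhD was 198, 262 and 491 in WT +P, 145, 262 and 368 in WT -P, 146, 180.1 and 146 in pnp1-1 +P and 138, 158 and 191 in pnp1-1 -P, and the difference of -0.75 ± 0.27 did not pass (adjusted p = 0.114). ccsA lies next to ndhD in the RefSeq annotation. Its 1 week level was 4339, 3351 and 4595 in WT +P, 1884, 1680.5 and 3099 in WT -P, 689, 1084 and 1420.2 in pnp1-1 +P and 1012, 1237 and 1594 in pnp1-1 -P. At 3 h it was 2927, 3207 and 4400.2 in WT +P, 1519, 3606 and 4216 in WT -P, 693, 1740.3 and 1002 in pnp1-1 +P and 1050.5, 2300.4 and 1683 in pnp1-1 -P. WT -P replicate 1 overlapped pnp1-1, and the difference was -1.27 ± 0.33 (adjusted p = 0.0373, and up to 0.0885 without single arrays). Plastid genes as a whole were called in both directions at 3 h: of 69 plastid probe sets, 12 were lower and 17 higher in pnp1-1, with a median of -0.04. Of 10 plastid ndh probe sets, 9 had a negative difference, against 36 of the 69 plastid probe sets and 60.1% of all probe sets. Among the 9, ndhG (-0.04), ndhF (-0.03) and ndhI (-0.11) lay close to 0. Only 2 passed, both named above, with 0 higher.

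Nuclear genes of the same complex, picked out after their values were seen, were members too. Nuclear NDH genes with a named probe set were not counted, so these examples show no theme. NdhL encodes a subunit, and CRR42 is needed to build NDH. NdhL at 1 week was 2626, 2548 and 2438 in WT +P, 1439, 1173 and 1659 in WT -P, 1157, 1335 and 1696 in pnp1-1 +P and 1398, 954 and 1163 in pnp1-1 -P. The WT +P arrays stood apart from the rest. At 3 h its difference of -0.77 ± 0.29 did not pass (adjusted p = 0.121). CRR42 had 1 week differences of -1.29 in WT and -1.20 between genotypes, and a 3 h difference of -0.55 ± 0.44 (adjusted p = 0.527).

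Other members encode proteins that work in the chloroplast. TRXF2 at 1 week was 2431, 2001 and 1668 in WT +P, 1152, 727 and 1281 in WT -P, 781, 869.5 and 1368 in pnp1-1 +P and 725, 519 and 1019 in pnp1-1 -P, and all WT +P arrays were above the others. At 3 h it was 1763, 1997 and 2610.1 in WT +P, 1060.1, 1621 and 2512 in WT -P, 676, 758 and 660.4 in pnp1-1 +P and 955, 633 and 678 in pnp1-1 -P. The genotypes did not overlap, and TRXF2 fell in pnp1-1 by a log2 difference of -1.36 ± 0.21 (adjusted p = 0.00407). TAPX showed the 1 week pattern with little spread. Its level was 1604, 1752 and 1355 in WT +P, 730.1, 559 and 683 in WT -P, 645, 578 and 795 in pnp1-1 +P and 658, 488 and 663 in pnp1-1 -P. At 3 h it was 1397, 1682 and 2102 in WT +P, 1357, 1634 and 1872 in WT -P, 747, 878 and 1204 in pnp1-1 +P and 859, 766 and 1202 in pnp1-1 -P. Again every WT array was above every pnp1-1 array, with a difference of -0.84 ± 0.17 (adjusted p = 0.0124). IGPD encodes an enzyme of histidine synthesis, and its 3 h difference was -0.72 ± 0.19 (adjusted p = 0.0373, and up to 0.0802 without single arrays). CYTC6A, which encodes a cytochrome c of the thylakoid lumen, had 1 week differences of -1.34 and -1.09 but a 3 h difference of -0.19 ± 0.25 (adjusted p = 0.705).

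**Figure D4:**
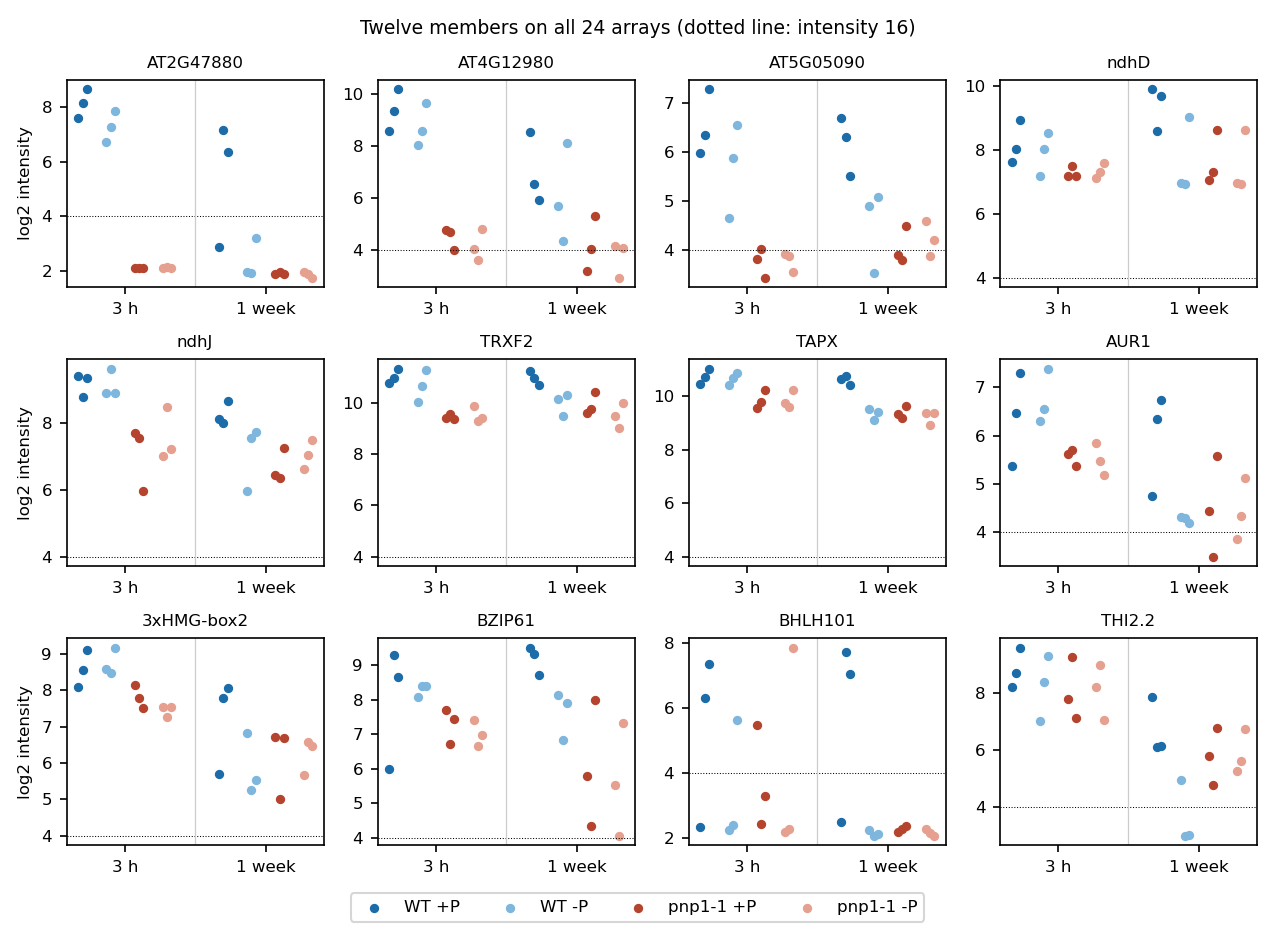
Log2 intensity of 12 members on all 24 arrays, by group and time; each point is 1 array and the dotted line marks an intensity of 16. ndhJ, TRXF2 and TAPX were lower in pnp1-1 at 3 h, ndhD, AUR1, BZIP61, BHLH101 and THI2.2 had no call there, and the pnp1-1 values of AT2G47880 lay between 4.3 and 4.5 at 3 h.

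Among members with roles in dividing cells, 4 picked out after their values were seen had a low WT +P replicate 1 at 1 week. That array was the lowest of the WT +P arrays in 144 of the 278 members, so this is common in the module. AUR1 encodes an Aurora kinase of mitosis, 3xHMG-box1 and 3xHMG-box2 encode proteins that bind mitotic chromosomes, and KICP-02 encodes a kinesin, a motor on microtubules. AUR1 at 1 week was 27, 81.4 and 107 in WT +P, 19.9, 19.5 and 18.3 in WT -P, 21.6, 11.2 and 47.9 in pnp1-1 +P and 14.4, 20.2 and 34.9 in pnp1-1 -P. 3xHMG-box2 was 51.5, 223 and 268 in WT +P, 114, 38.2 and 46.7 in WT -P, 106, 32 and 103 in pnp1-1 +P and 50.5, 96.4 and 89.3 in pnp1-1 -P. In both genes the high WT +P values came from replicates 2 and 3, the near-alike pair, and replicate 1 lay among the low groups. The same holds for 3xHMG-box1, at 18.5, 59.9 and 71.3 in WT +P, and KICP-02, at 37.8, 132 and 94.7. At 3 h 3xHMG-box2 was 272, 377 and 547 in WT +P, 387, 357 and 577 in WT -P, 284, 219 and 182 in pnp1-1 +P and 188, 154 and 187 in pnp1-1 -P. It was lower in pnp1-1 by -1.03 ± 0.20 (adjusted p = 0.0104), although pnp1-1 +P replicate 1 overlapped WT. KICP-02 was lower by -0.97 ± 0.24 (adjusted p = 0.0307, and up to 0.0742 without single arrays). AUR1 (-1.03 ± 0.32, adjusted p = 0.0708) and 3xHMG-box1 (-0.37 ± 0.21, adjusted p = 0.317) did not pass. CHR23, a chromatin-remodelling ATPase, had 3 h levels of 94.6, 72 and 127 in WT +P, 88.8, 57.2 and 64 in WT -P, 52, 50.3 and 28.5 in pnp1-1 +P and 39, 42.9 and 63.8 in pnp1-1 -P. pnp1-1 -P replicate 3 lay above WT -P replicate 2, and the difference was -0.86 ± 0.22 (adjusted p = 0.0342, and up to 0.0846 without single arrays).

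Members that encode transcription factors divided in the same way. AGL87, a MADS-box factor, was 269.6, 266 and 255 in WT +P at 1 week, 109, 82.3 and 75.1 in WT -P, 28.7, 37.4 and 137 in pnp1-1 +P and 72, 27.7 and 62.2 in pnp1-1 -P. At 3 h it was 453, 734 and 893 in WT +P, 449, 685 and 890.4 in WT -P, 188, 162 and 356 in pnp1-1 +P and 221, 189.6 and 335 in pnp1-1 -P. The genotypes did not overlap, and the difference was -1.51 ± 0.28 (adjusted p = 0.00904). BZIP61, a basic leucine zipper factor, had among the largest falls at 1 week. It was 730, 643 and 421 in WT +P, 283, 114 and 240.3 in WT -P, 55, 20.4 and 256 in pnp1-1 +P and 45.9, 16.7 and 161 in pnp1-1 -P, so that pnp1-1 lay below starved WT as well (-1.99). At 3 h it was 63.4, 635 and 401 in WT +P, 272, 337 and 335 in WT -P, 209, 105 and 174 in pnp1-1 +P and 171, 101 and 126 in pnp1-1 -P. WT +P replicate 1 was the lowest of the 12 arrays. The difference of -0.98 ± 0.51 did not pass (adjusted p = 0.279) but reached 0.0056 in the repeat without that array. BHLH101, a factor induced by iron deficiency, was on or off from array to array. At 1 week it was 5.64, 209 and 132 in WT +P and between 4.16 and 5.14 on the other 9 arrays, and at 3 h it was 5, 78 and 161 in WT +P, 4.7, 5.2 and 48.9 in WT -P, 44.4, 5.3 and 9.7 in pnp1-1 +P and 4.5, 4.8 and 229.8 in pnp1-1 -P. No group at 3 h was uniform, and the difference was -0.45 ± 1.32 (adjusted p = 0.862). ULT1, a regulator of shoot meristem size, and AT5G41920 (SCL23, a GRAS-family regulator) had 1 week genotype differences of -1.57 and -1.05. Their 3 h differences were -0.12 ± 0.41 (adjusted p = 0.882) and -0.47 ± 0.17 (adjusted p = 0.112).

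THI2.2, a thionin (a small antimicrobial protein), was the member whose genotypes differed most in the opposite sense on -P at 1 week. It was 228, 68.2 and 69.2 in WT +P, 30.9, 7.89 and 7.96 in WT -P, 54.5, 26.8 and 107 in pnp1-1 +P and 38.5, 48.5 and 106 in pnp1-1 -P. Starved WT was thus lowest, with a genotype difference on -P of 1.55. At 3 h its values overlapped (-0.46 ± 0.54, adjusted p = 0.665). iqd21, which encodes a calmodulin-binding protein, was lower at 3 h by -0.72 ± 0.14 (adjusted p = 0.0112), with no overlap between genotypes. TET7, a tetraspanin of the membrane, had -0.11 ± 0.16 (adjusted p = 0.712).

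The 12 members with the largest called 3 h differences without a floor were all lower in pnp1-1, and none has a symbol beyond its locus. Several end at background in pnp1-1, so their order there is not dependable. With values under 16 set to 16, 10 of the 12 kept a place among the 12 largest, while AT5G05090 came to rank 15 (-2.11) and 263953_at to rank 21 (-1.82). Their places went to AT4G12830 (-2.32) and AT3G23880 (-2.22), both with the floor. AT2G47880 at 3 h was 193, 281 and 398 in WT +P and 106, 155 and 228 in WT -P, and 4.3, 4.3 and 4.3 in pnp1-1 +P and 4.3, 4.5 and 4.3 in pnp1-1 -P. Every WT array was clearly above background and every pnp1-1 array at it. The difference was -5.58 ± 0.21 (adjusted p = 4.09e-06), or -3.70 with values under 16 set to 16. At 1 week the same transcript was 7.31, 142 and 80.8 in WT +P and between 3.4 and 9.26 on the other 9 arrays, so 1 of 3 WT +P arrays was at background too. AT1G13650 was 319, 478 and 1216 in WT +P, 157, 366 and 790.3 in WT -P, 7, 7.2 and 7 in pnp1-1 +P and 9.7, 7.6 and 11.7 in pnp1-1 -P at 3 h. The gap between genotypes was -5.78 ± 0.42 (adjusted p = 0.000138), or -4.82 with the floor. At 1 week it was 279, 10.8 and 5.54 in WT +P and 5.06, 4.89 and 50.2 in WT -P, so replicate 1 alone of the WT +P arrays was above 16. AT4G12980 was 386, 664 and 1172 in WT +P, 268, 392 and 827 in WT -P, 27.5, 26.1 and 16.1 in pnp1-1 +P and 16.7, 12.3 and 28.3 in pnp1-1 -P at 3 h. Its difference was -4.76 ± 0.37 (adjusted p = 0.000212), and at 1 week pnp1-1 lay below WT on -P too (-1.99).

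AT5G05090 was 62.8, 81.4 and 154 in WT +P, 25.4, 58.7 and 94.1 in WT -P, 14.1, 16.2 and 10.9 in pnp1-1 +P and 15.3, 14.7 and 11.8 in pnp1-1 -P at 3 h, with no overlap and a difference of -2.34 ± 0.33 (adjusted p = 0.00293). AT4G02850 was 160.5, 206 and 482 in WT +P, 106, 78.5 and 292 in WT -P, 21.3, 24.5 and 29.8 in pnp1-1 +P and 35.9, 21.9 and 75.2 in pnp1-1 -P, with a difference of -2.56 ± 0.43 (adjusted p = 0.00628). AT2G32560 was 147, 216 and 268 in WT +P, 161, 147 and 239.8 in WT -P, 55.7, 22.7 and 33.1 in pnp1-1 +P and 37.3, 7.8 and 56.1 in pnp1-1 -P, with a difference of -2.69 ± 0.47 (adjusted p = 0.00736). In all 3 genes the lowest WT array stood above the highest pnp1-1 array. Among the 6 unnamed probe sets of this rank, 257506_at, 263953_at, 259773_at, 259783_at and 259784_at also separated the genotypes at 3 h, with differences of -3.61, -3.04, -2.93, -2.78 and -2.54. With the floor, 257506_at had -2.76. The other, 247814_at, had -2.44 ± 0.60 (adjusted p = 0.0288, and up to 0.0745 without single arrays), and pnp1-1 -P replicate 3 (128) overlapped WT +P replicate 1 (100.1).

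The 8 members with the largest mean of both falls at 1 week divided at 3 h. 263981_at was 269, 344 and 242 in WT +P at 1 week, 65.7, 19.4 and 59.1 in WT -P, 21.4, 16.2 and 44.8 in pnp1-1 +P and 22.2, 24.5 and 23.4 in pnp1-1 -P. The WT +P arrays were far above the rest, yet its 3 h difference was -0.83 ± 0.37 (adjusted p = 0.204). 262128_at was 1169, 26.1 and 234 in WT +P and 10.2, 7.66 and 181 in WT -P at 1 week, between 7.14 and 10.6 on the 6 pnp1-1 arrays, and between 6.1 and 8.3 on all 12 arrays at 3 h. It was thus at background in both genotypes at 3 h and could not show a difference there. 262412_at was 199, 153 and 195 in WT +P, 6.22, 62.5 and 69.5 in WT -P, 5.2, 5.67 and 8.15 in pnp1-1 +P and 5.59, 4.11 and 3.88 in pnp1-1 -P at 1 week. At 3 h it was lower in pnp1-1 by -2.09 ± 0.13 (adjusted p = 6.03e-05), or -0.70 with the floor, from WT levels of 16.6 to 35.8. AT4G34220 was 268, 313 and 279 in WT +P, 92.6, 33.4 and 118 in WT -P, 38, 31.6 and 106 in pnp1-1 +P and 40.3, 30.8 and 44.9 in pnp1-1 -P at 1 week, and at 3 h it was lower by -1.26 ± 0.25 (adjusted p = 0.0112). AT5G59080 was 409, 368 and 288 in WT +P, 79.5, 87.2 and 262 in WT -P, 22.6, 11.5 and 192 in pnp1-1 +P and 7.59, 29.8 and 88.8 in pnp1-1 -P at 1 week, but its 3 h values overlapped (-0.67 ± 0.66, adjusted p = 0.613). BZIP61 and BHLH101, described above, and 263953_at complete the 8.

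The 3 members higher in pnp1-1 at 3 h went against their 1 week direction. AT2G28200 was 14.5, 56.6 and 48.9 in WT +P, 13.6, 19.9 and 43.2 in WT -P, 70, 53.9 and 99.9 in pnp1-1 +P and 65.9, 74.8 and 121 in pnp1-1 -P, a difference of 1.48 ± 0.41 (adjusted p = 0.0463). 256598_at had 1.46 ± 0.34 (adjusted p = 0.023), and AT5G63190 had 0.81 ± 0.22 (adjusted p = 0.041). Each lost its call without some single array, at adjusted p of up to 0.0971, 0.0598 and 0.0946.

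No member responded to -P at 3 h in either genotype at the threshold. In WT, limma called 0 probe sets of 22746 (background 0.00%), with 731 at an unadjusted p under 0.05, 12 of them members. The fit is unpaired, although same-numbered WT arrays deviated together at 0.671, 0.466 and 0.687. With the replicate number as a block, 1331 probe sets had an unadjusted p under 0.05 and 0 were called. With that block within the 6 WT arrays, a fit added after seeing the data, 2845 did and 0 were called. The members' median was -0.11, against -0.02 over all probe sets, and it was 0.03 without WT +P replicate 3 and 0.00 without WT -P replicate 1, repeats that each break up a same-numbered pair. In pnp1-1, 0 probe sets were called (278 at an unadjusted p under 0.05, 3 of them members), and the members' median was 0.02. The replicate block gave 788 at that unadjusted p over the 12 arrays and 892 within the 6 pnp1-1 arrays, with 0 called in both. The test of whether the responses differ between genotypes called 0 probe sets (551 at an unadjusted p under 0.05, 6 of them members), with a median of 0.14 over members and 0.02 over all. With the replicate block, 1376 probe sets had an unadjusted p under 0.05 for this difference, and 0 were called. Other settings called between 0 and 3 probe sets in these comparisons. At 3 h the members' mean log2 level was 7.03, 7.42 and 7.76 in WT +P and 6.99, 7.26 and 7.54 in WT -P. It was 6.76, 6.54 and 6.68 in pnp1-1 +P and 6.65, 6.51 and 6.90 in pnp1-1 -P. The genotypes stood apart on these arrays. In WT each -P array was below its same-numbered +P array, by differences of -0.03, -0.16 and -0.22 in the members' mean, whereas in pnp1-1 the differences were -0.11, -0.03 and 0.23. In the same WT pairs the members' median response was -0.03, -0.14 and -0.17, against 0.00, -0.04 and 0.00 over all probe sets. The mean level over all probe sets was between 6.30 and 6.38. Intensities at 3 h and at 1 week differed in overall level (means of 463 to 496 and 583 to 602), so time and batch cannot be told apart, and levels were compared only within a time.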

How the data were processed

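Total RNA of root-free Arabidopsis seedlings was read on single-colour, biotin-labelled arrays, and all 24 value columns belong to labelled samples. The deposited numbers are linear intensities, 1 per probe set and all positive. GCRMA, affy and limma are named per the submitters' processing notes, without versions or order. The array files name no genome build, so no coordinates or sequences are given and the planned search of promoters for motifs was not run. Intensities were turned into log2 values here. Control probe sets (64) were left out, leaving 22746.

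The members and the gene lists were chosen with earlier results of these data known. Probe sets were named through the platform annotation supplied with the data and updated with RefSeq (TAIR10.1 gene table). The probe sets chosen by rule are those with the largest called changes in the mean genotype difference at 3 h (up to 12), the 8 with the lowest mean of both falls at 1 week, and the 3 on each side of the rule's limit. Several unnamed ones and those at the limit are given by their differences alone, without values of single arrays. Genes outside these were chosen after their values were seen.

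At 3 h, 4 group means were fitted to log2 intensity without a floor on 12 arrays (lmFit and eBayes of limma, version 3.58.1, under R 4.3.3), leaving 8 residual degrees of freedom, to which the prior added 1.04. This gave 6 comparisons: genotype on +P, genotype on -P, their mean, the -P response of each genotype, and the interaction. P-values were Benjamini-Hochberg adjusted over all 22746 probe sets within each comparison, calls were made at an adjusted p under 0.05, and errors are standard errors of that fit. Whether replicates came from separate plantings is not stated, so p-values measure the spread between these pools. On simulated data for genotype on +P over 22746 probe sets, 42% of 200 features with a log2 change of 1 and 81% of 200 with a change of 2 were called, with 17 false calls, and made 0 calls in an unchanged comparison.

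Replicate numbers are shared by the groups. Deviations of same-numbered arrays from their group means correlated at 0.160, 0.355 and 0.310 for genotype on -P. They correlated at 0.671, 0.466 and 0.687 for the WT response, and at 0.230, 0.433 and 0.422 for the pnp1-1 response. For genotype on +P they correlated at -0.101, 0.017 and -0.003. The reported fit has no replicate term, so its p-values are unpaired in every comparison. Pairing enters only through the replicate block among the alternatives. Alternatives changed the arrays in the fit, the floor, a filter on dim probe sets, quantile normalization, median centring, the variance prior, array weights, the replicate block and single arrays.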

Additional observations from a re-analysis of the deposited data

How the results depend on the processing

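The mean genotype difference at 3 h stayed within 1.5 times its count of calls in every setting, except that 59 members were called lower both without WT -P replicate 3 and without pnp1-1 -P replicate 2 (59 to 108 over the 12 repeats that leave out 1 array). In those 2 repeats 963 and 947 of 22746 probe sets were lower. For the mean genotype difference, members called lower numbered 119 with the replicate block, where 1977 of 22746 probe sets were lower. Counts of calls below take in both directions. The rule itself gave 124 members with falls of at least 1, 164 without the 3 arrays of raised lower quartile (added after seeing the data), and 182 to 493 with single arrays left out. Genotype on +P gave 161 calls and 12 lower members from its 6 arrays alone, 2601 and 82 with the replicate block over 12 arrays, and 0 and 0 with the block within its 6 arrays (added after seeing the data), where 3839 probe sets had an unadjusted p under 0.05. The numbers share only a number there. On +P 60 members were lower with values under 16 set to 16, where 696 of 13984 probe sets were lower. With a mean log2 of at least 4, 59 members and 704 of 13529 probe sets were lower, and with array weights 57 members and 787 of 22746. Lower calls over all probe sets thus rose as well. With single arrays left out, +P gave 324 to 1378 calls and 11 to 52 lower members. Genotype on -P gave 420 calls and 9 lower members from its 6 arrays alone, 2322 and 65 with array weights, 1293 and 41 with the replicate block, and 145 and 6 with the block within its 6 arrays. On -P 26 members were lower with the floor (321 of 13984 probe sets), with the filter on the mean (321 of 13529), and with median centring (372 of 22746). With single arrays left out, -P gave 173 to 827 calls and 6 to 24 lower members. The WT response gave 2 calls with quantile normalization and 0 to 3 without single arrays. The pnp1-1 response gave 2 calls with all 24 arrays, with a trended robust prior and with array weights, 1 with the floor and 1 with quantile normalization, and 0 to 1 without single arrays. The interaction gave 1 call with quantile normalization, 1 with the trended prior, and 0 to 3 without single arrays. The replicate block changed none of these 3 counts from 0. The cause of these shifts was not tested beyond the smaller number of arrays or probe sets that some settings use.

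Among the 19 members described by rule, BHLH101 turned positive without WT +P replicate 3 (0.05), WT -P replicate 3 (0.10), pnp1-1 -P replicate 1 (0.03) or pnp1-1 -P replicate 2 (0.0034), over a range of -1.39 to 0.10. 247814_at lost its call in 6 of 20 alternatives (adjusted p 0.00666 to 0.0745). 263981_at passed with array weights (adjusted p 0.0405) and without WT +P replicate 1 (0.014). The others kept their direction. The fit to only the groups compared is the reported fit itself for the mean genotype difference and the interaction, which use all 4 groups. Levels under an intensity of 16 limit what can be read: 6 members lay there on all 12 arrays at 3 h, and no fold can be had for them.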
